A study of Homo sapiens with 27 samples.

Results

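The 10 genes described here encode S100 calcium-binding proteins: S100A2, S100A4, S100A6, S100A7, S100A8, S100A9, S100A10, S100A11, S100A14 and S100P. They were taken by gene symbol from a table of 40487 rows, and the choice was made with earlier results of these data known. Each symbol had 1 row, and all 10 were among the 16611 rows with enough counts to be tested. The libraries, 27 in all, were made from polyadenylated RNA of MCF10A, a human epithelial cell line from breast that is established and does not form tumours, with 3 libraries in each of 9 groups. All cells had been grown with 20 ng/ml epidermal growth factor (EGF), horse serum, hydrocortisone, cholera toxin and insulin. They were then seeded on collagen-1 (520000 cells), given 6 h to attach and kept for 18 h without growth factors. The T0 group was taken at that point (0 h), and the PBS group received phosphate-buffered saline for a further 24 h. The other 7 groups received ligands for 24 h, all at 10 ng/ml. These were EGF itself, OSM (oncostatin M, which signals through gp130 like interleukin-6) and TGFB (the growth factor TGF beta). They were given singly (EGF, OSM, TGFB), in pairs (EGF+OSM, EGF+TGFB, OSM+TGFB) and all together (EGF+OSM+TGFB). The labels do not say that the 3 libraries of a group came from separate cultures, so p-values measure the spread between these libraries, which may be technical. All groups are of 1 cell line in culture.

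S100 proteins are small proteins with a pair of EF-hand loops, which bind calcium in most of the family, and most of them work as dimers. S100A8 and S100A9 join to form calprotectin, which binds zinc and manganese and is abundant in neutrophils and in inflamed or wounded squamous epithelium. S100A7 (psoriasin) is an antimicrobial protein of keratinocytes. S100A10 binds annexin A2 and S100A11 binds annexin A1, both at membranes. S100A2 and S100A14 are typical of epithelial cells, S100A4 is known from motile and mesenchymal cells, S100A6 (calcyclin) is expressed in many cell types, and S100P was first described in placenta.

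In the GENCODE v44 annotation of GRCh38, 9 of the 10 genes lay on chromosome 1 within 1634.1 kb, in the band 1q21 beside the genes of the cornified envelope. S100A10 (chr1:151982915-151993859) and S100A11 (chr1:152032506-152047907) lay at the end of this span away from the others. S100A9 (chr1:153357854-153361023), S100A8 (chr1:153390032-153391073) and S100A7 (chr1:153457744-153460651) followed, with S100A12 and S100A7A between them. S100A6 (chr1:153534599-153536244), S100A4 (chr1:153543613-153550136), S100A2 (chr1:153561108-153567890) and S100A14 (chr1:153614255-153616986) came next. S100A9 was on the plus strand and the other 8 on the minus strand. S100P was on chromosome 4 (chr4:6693878-6697170, plus strand). The span of S100A4 contains that of S100A3 on the same strand, although the canonical start site of S100A4 (153545806) lies outside the S100A3 span. Whether these 2 genes share reads was not tested.

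The 250 bases before the start site are shown for 5 genes, 5′ to 3′ on the gene's strand, from RefSeq on GRCh38.p14. S100A9, S100A8 and S100A7 are shown because they moved together, S100A7A because it is nearly identical to S100A7, and S100A2 because its response to paired ligands was furthest from additive. Capitals mark matches, on either strand, to the letters TTCNNNGAA (a STAT motif), TGANTCA (AP-1) or TTNNGNAA (C/EBP). The windows are chr1:153357604-153357853 (plus strand) for S100A9, chr1:153391074-153391323 (minus) for S100A8, chr1:153460652-153460901 (minus) for S100A7, chr1:153416270-153416519 (plus) for S100A7A and chr1:153565845-153566094 (minus) for S100A2.
S100A9: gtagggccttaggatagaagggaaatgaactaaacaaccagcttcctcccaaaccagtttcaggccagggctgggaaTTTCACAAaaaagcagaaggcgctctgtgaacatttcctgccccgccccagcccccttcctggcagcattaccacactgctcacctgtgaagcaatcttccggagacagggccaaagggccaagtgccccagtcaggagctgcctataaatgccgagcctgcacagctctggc
S100A8: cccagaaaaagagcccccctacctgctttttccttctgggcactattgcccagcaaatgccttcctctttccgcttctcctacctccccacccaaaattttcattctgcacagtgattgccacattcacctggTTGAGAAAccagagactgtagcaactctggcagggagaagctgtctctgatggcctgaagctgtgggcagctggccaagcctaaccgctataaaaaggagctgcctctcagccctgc
S100A7: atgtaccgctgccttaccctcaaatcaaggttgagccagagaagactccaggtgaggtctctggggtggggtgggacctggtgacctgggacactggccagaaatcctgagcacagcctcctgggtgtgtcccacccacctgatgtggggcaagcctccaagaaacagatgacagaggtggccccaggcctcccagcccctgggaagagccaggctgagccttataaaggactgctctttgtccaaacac
S100A7A: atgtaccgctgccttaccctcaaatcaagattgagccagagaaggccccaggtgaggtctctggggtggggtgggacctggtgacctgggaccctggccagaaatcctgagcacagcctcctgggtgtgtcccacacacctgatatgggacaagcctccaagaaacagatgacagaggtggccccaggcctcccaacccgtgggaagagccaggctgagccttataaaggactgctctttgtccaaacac
S100A2: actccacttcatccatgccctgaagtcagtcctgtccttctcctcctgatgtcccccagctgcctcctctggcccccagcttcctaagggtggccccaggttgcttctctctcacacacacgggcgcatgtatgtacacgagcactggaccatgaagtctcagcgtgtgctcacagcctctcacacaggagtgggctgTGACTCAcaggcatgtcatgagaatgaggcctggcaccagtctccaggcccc
S100A8 held a C/EBP match, TTGAGAAA, at positions -117 to -110 counted from the start site, and S100A9 held TTTCACAA at -173 to -166. S100A2 held an AP-1 match, TGACTCA, at -52 to -46. Over 34788 RefSeq windows of the same length, 6.574% held the STAT letters, 6.591% the AP-1 letters and 33.22% the C/EBP letters. Of the 10 windows of these S100 genes, 0 held the STAT letters, 1 the AP-1 letters and 5 the C/EBP letters (S100A6, S100A8, S100A9, S100A11 and S100P). The letters CAGAC, a SMAD motif that is not capitalised above, were in 3 (S100A4, S100A10 and S100A11) against 38.01% of all windows. S100A7 and S100A7A held none of these letters, and their windows were identical at 241 of 250 bases (96.4%). Their coding sequences were identical at 96.04% of bases, so reads from the 2 genes are split with uncertainty.

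Libraries held 30.1 to 52.9 M (mega) counts (median 39.5 M). A level in CPM is a gene's counts in every 1 M of its scaled library size, with scaling factors of 0.867 to 1.12. The 10 S100 genes together took 0.523 to 0.531% of the counts in PBS, 0.984 to 1.03% with EGF, 1.31 to 1.44% with OSM and 0.531 to 0.549% with TGFB. As checks of the EGF and OSM treatments, log2 fold changes against PBS were 4.16 for DUSP6 (an ERK target) with EGF and 6.77 for SOCS3 (a STAT3 target) with OSM. The basal keratins and other basal epithelial markers fixed for MCF10A summed to 11391 to 30101 CPM across libraries, with KRT5 at 9189 CPM in its highest library. EPCAM did not pass 18.5 CPM. The 8 luminal markers summed to 386.9 to 1127 CPM, with KRT8 at up to 714.3 CPM and KRT18 at up to 430.5, while PGR and ELF5 stayed at or below 0.109 CPM.

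OSM gave the largest rise of any single ligand in the 10 genes, in S100A8 and S100A9, and S100A7 rose with them. EGF and TGFB each lowered the same 3 genes, and EGF+TGFB lowered them further. S100A2, S100A10 and S100A11 rose with every ligand and combination. S100A14 fell wherever OSM or TGFB was present, and S100P fell with EGF, with OSM and in every combination.

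**Figure D1:**
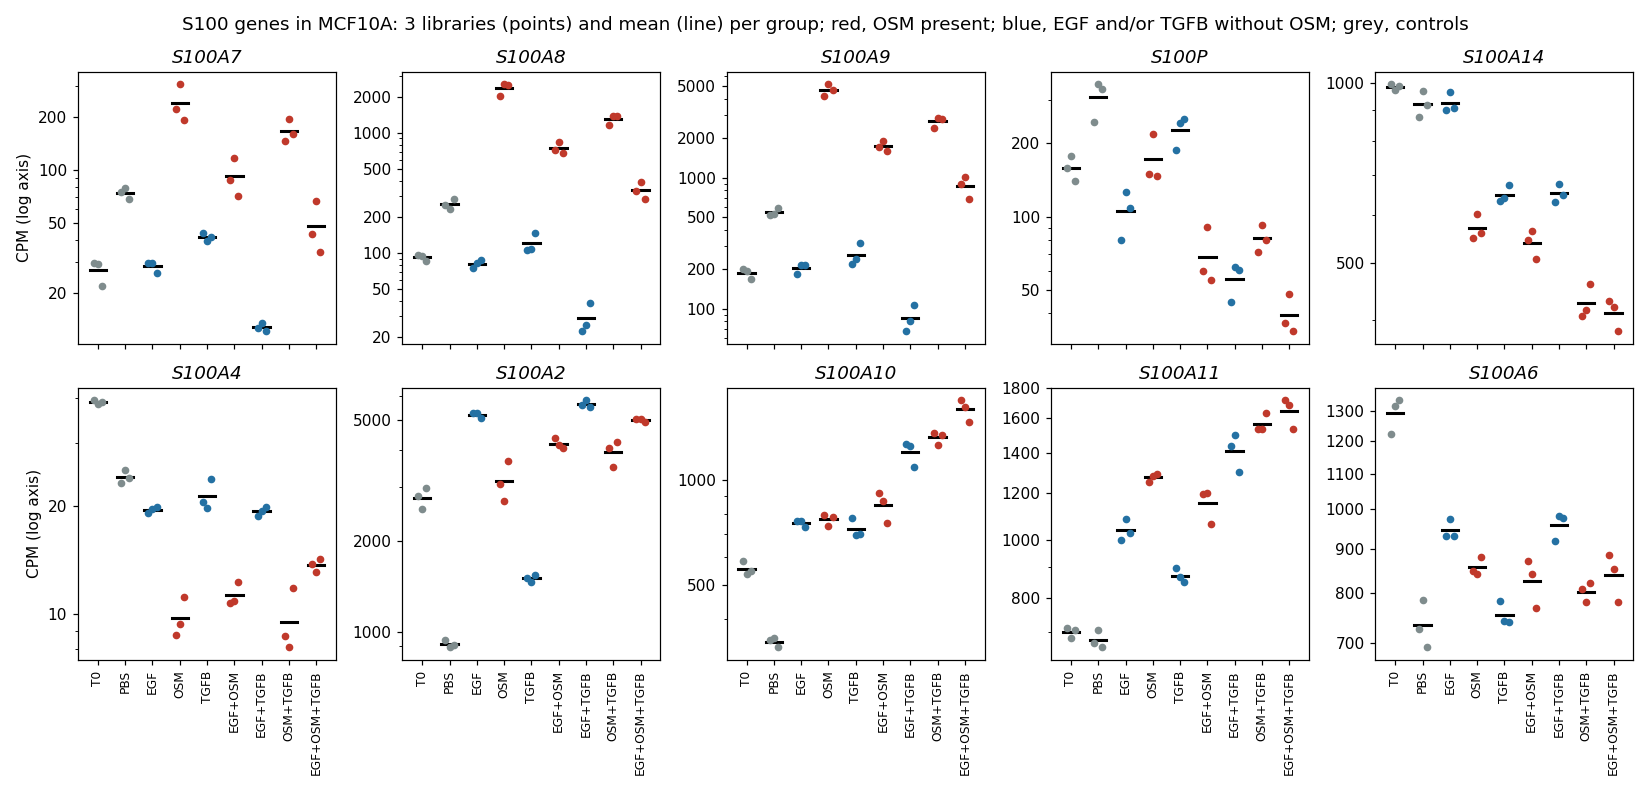
Level of each of the 10 S100 genes in CPM (log axis) in the 9 groups, with points for the 3 libraries of a group and a line for their mean. Red marks groups with OSM, blue groups with EGF or TGFB but no OSM, and grey T0 and PBS. The S100A8, S100A9 and S100A7 panels have their highest points in OSM and their lowest in EGF+TGFB, while S100P is highest in PBS.

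S100A8 was at 252.7, 231.3 and 283.8 CPM in the 3 PBS libraries and at 2025, 2548 and 2490 CPM with OSM. It was at 74.8, 81.8 and 86.7 CPM with EGF, and at 105.8, 108.3 and 146.8 CPM with TGFB. The OSM libraries all lay above the PBS libraries, and the EGF and TGFB libraries all lay below them. In the combinations, S100A8 was at 716.9, 846.2 and 679.2 CPM with EGF+OSM, at 1167, 1391 and 1395 CPM with OSM+TGFB, and at 22.3, 25.2 and 38.6 CPM with EGF+TGFB. It was at 327.2, 389.9 and 280.5 CPM with EGF+OSM+TGFB, where the lowest library overlapped the PBS range. The order of group means was OSM, OSM+TGFB, EGF+OSM, EGF+OSM+TGFB, PBS, TGFB, T0, EGF and EGF+TGFB. Neighbours in this order had ranges that did not overlap, except EGF+OSM+TGFB with PBS and T0 with EGF.

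Against PBS, S100A8 rose by 3.20 ± 0.18 on the log2 scale with OSM (SE, 9.20-fold; edgeR quasi-likelihood test, Benjamini-Hochberg adjusted p = 1.71e-12). It fell with EGF, by 1.66 ± 0.17 (adjusted p = 1.75e-08 in the same edgeR test), and with TGFB, by 1.09 ± 0.17 (adjusted p = 2.43e-05). These 3 responses are each several times larger than their errors. With EGF+TGFB it fell by 3.17 ± 0.18, which is 8.98-fold. With EGF+OSM+TGFB the difference from PBS was 0.38 ± 0.16 (edgeR adjusted p = 0.0441). That call was lost in 19 of the 34 other settings, 15 of them fits without a single library. Among them were upper-quartile scaling (0.28, adjusted p = 0.135) and the fit without EGF+OSM+TGFB replicate 2 (0.23, adjusted p = 0.262). In bulk RNA, a change in the number of expressing cells cannot be told apart from a change in RNA per cell, here and in every result that follows.

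S100A9, the partner of S100A8, showed the same order of groups above PBS. It was at 514.0, 530.4 and 587.8 CPM in PBS, at 4174, 5152 and 4629 CPM with OSM, at 182.2, 214.2 and 215.9 CPM with EGF, and at 217.4, 239.7 and 315.5 CPM with TGFB. As for S100A8, each single ligand left all 3 libraries on 1 side of the PBS range. With OSM+TGFB it was at 2402, 2858 and 2815 CPM, with EGF+OSM at 1712, 1903 and 1598 CPM, with EGF+OSM+TGFB at 896.8, 1016 and 687.7 CPM, and with EGF+TGFB at 67.2, 81.1 and 106.7 CPM. Every group that contained OSM lay above the PBS libraries, and every group with EGF or TGFB and no OSM lay below them. The log2 fold changes against PBS were 3.10 ± 0.17 with OSM (SE, 8.55-fold; edgeR adjusted p = 1.4e-12), -1.41 ± 0.16 with EGF, -1.08 ± 0.16 with TGFB and -2.68 ± 0.17 with EGF+TGFB. With EGF+OSM+TGFB it was 0.67 ± 0.16 (edgeR adjusted p = 0.000713), a call kept in all 34 other settings.

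S100A7 also had its highest level with OSM and its lowest with EGF+TGFB, with a smaller rise. It was at 75.2, 78.95 and 68.3 CPM in PBS and at 222.7, 307.4 and 192.3 CPM with OSM, so all OSM libraries were above all PBS libraries. It was at 29.8, 29.7 and 25.9 CPM with EGF, at 43.7, 39.6 and 41.4 CPM with TGFB, and at 12.6, 13.5 and 12.1 CPM with EGF+TGFB. All 9 of these libraries lay below PBS. The log2 fold changes were 1.70 ± 0.21 with OSM (SE; edgeR adjusted p = 5.2e-07), -1.38 ± 0.21 with EGF, -0.84 ± 0.21 with TGFB and -2.54 ± 0.23 with EGF+TGFB. With EGF+OSM the libraries were at 87.9, 117.7 and 71.3 CPM, overlapping PBS, and the difference of 0.32 was not called (edgeR adjusted p = 0.172, 95% interval -0.12 to 0.75). With EGF+OSM+TGFB S100A7 was at 43.3, 66.8 and 34.1 CPM, below PBS (-0.63 ± 0.21, edgeR adjusted p = 0.0114), where S100A8 and S100A9 were above it. Without EGF+OSM+TGFB replicate 3 that value was -0.46 (adjusted p = 0.0632).

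OSM raised S100A8, S100A9 and S100A7 whichever other ligands were present. It raised S100A8 by 3.20 against PBS, by 3.20 on top of EGF, by 3.45 on top of TGFB and by 3.54 on top of EGF+TGFB, on the log2 scale. EGF lowered S100A8 by a log2 difference of -1.66 both against PBS and on top of OSM, of -2.08 on top of TGFB and of -1.99 on top of OSM+TGFB. TGFB lowered it by -1.09 against PBS, -1.51 on top of EGF, -0.84 on top of OSM and -1.17 on top of EGF+OSM. All 12 of these effects were called, and the same 12 were called for S100A9 and for S100A7. For S100A7 the effect of TGFB on top of OSM was -0.53 ± 0.20 (edgeR adjusted p = 0.0377). That call was lost in 4 of the 34 other settings. They were no filter on low counts and the fits without OSM replicate 2 (-0.34, adjusted p = 0.206), OSM+TGFB replicate 1 or OSM+TGFB replicate 3.

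To ask whether responses add, the log2 fold changes of the single ligands were summed and subtracted from that of their combination, each taken against PBS. This departure from the sum is 0 where they add. For EGF+OSM, where opposite responses met, the departure was 0.0026 for S100A8 (95% interval -0.48 to 0.48), -0.0060 for S100A9 (-0.48 to 0.46) and -0.0024 for S100A7 (-0.64 to 0.63). None was called, and the intervals leave room for departures of up to about these bounds. For EGF+OSM+TGFB the departures were -0.08 (-0.77 to 0.61), 0.07 (-0.59 to 0.73) and -0.11 (-0.99 to 0.77) in the same order, and none was called. For S100A8 with EGF+TGFB the departure was -0.42 ± 0.24 (edgeR adjusted p = 0.211), and without EGF+TGFB replicate 3, the highest of its 3 libraries, it was -0.73 (adjusted p = 0.0132).

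**Figure D2:**
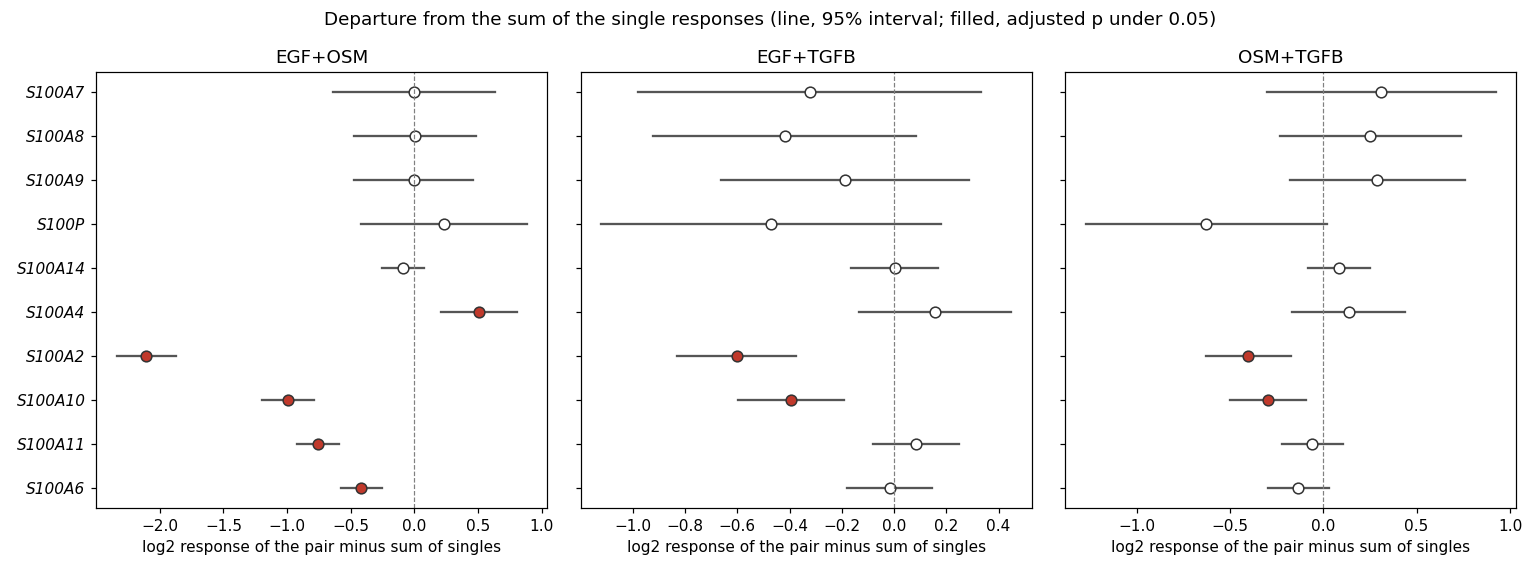
Departure of the EGF+OSM, EGF+TGFB and OSM+TGFB responses from the sum of the single-ligand responses, in log2 units, for each S100 gene. Points are estimates, bars are 95% intervals, and filled points are called at an adjusted p under 0.05. S100A7, S100A8 and S100A9 lie near 0 for EGF+OSM, while S100A2 lies at -2.11.

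The proportions among these 3 genes shifted between treatments. The S100A9 to S100A8 ratio of counts was 1.86 to 2.06 in the OSM libraries, 2.03 to 2.29 in PBS, 2.44 to 2.62 with EGF and 2.76 to 3.21 with EGF+TGFB. The ratio was thus higher in every EGF library than in every PBS library. The S100A7 to S100A8 ratio was 0.0772 to 0.171 in the 12 libraries of groups with OSM and 0.241 to 0.565 in the 15 libraries of groups without it, with no overlap. These ratios compare counts within a library and are not levels per length.

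**Figure D3:**
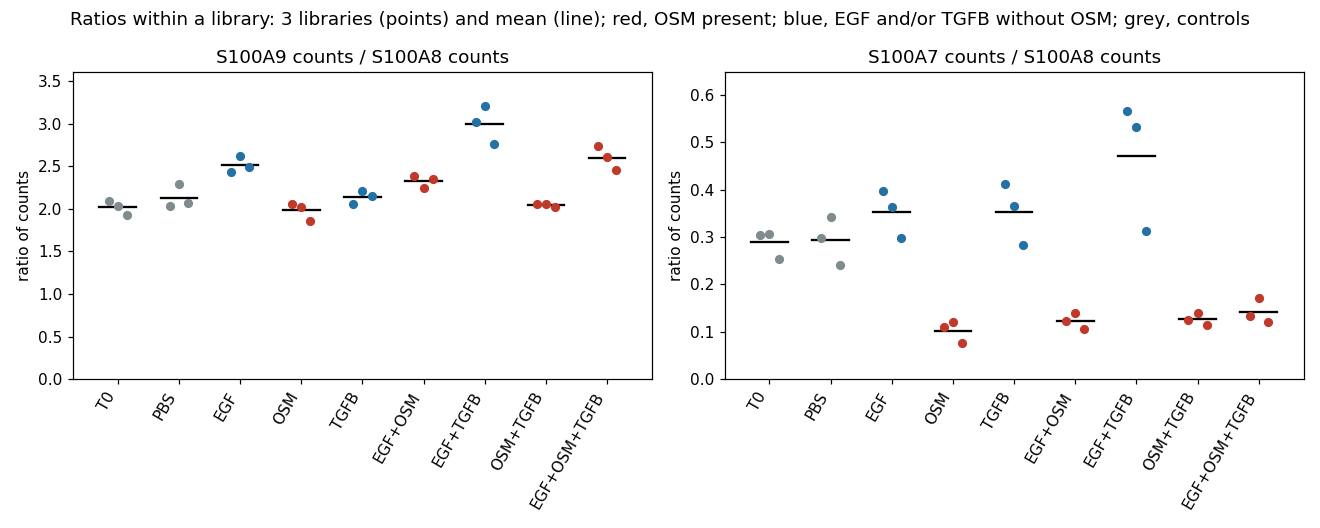
Ratio of S100A9 to S100A8 counts and of S100A7 to S100A8 counts in each library, by group. Points are libraries and lines are group means, coloured by the presence of OSM (red), of EGF or TGFB without OSM (blue) or of neither (grey). In the S100A7 to S100A8 panel all libraries with OSM lie at or below 0.171 and all others at or above 0.241, and in the S100A9 to S100A8 panel EGF+TGFB is highest.

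By Pearson correlation of group mean log2 CPM over the 9 groups, the genes most like S100A8 were S100A9 (r = 0.997), S100A12 (0.994) and SERPINB3 (0.990). Those most like S100A9 were S100A8 (0.997), SERPINB3 (0.995) and NAMPT (0.987), and those most like S100A7 were S100A12 (0.991), S100A8 (0.978) and HNRNPH2 (0.967). These are descriptions over 9 groups that share libraries and scaling. S100A12 and S100A7A lie between the 3 genes on the chromosome and were measured at lower CPM. S100A12 was at 1.47, 0.947 and 1.20 CPM in PBS and at 7.34, 9.32 and 6.73 CPM with OSM (log2 fold change 2.69 ± 0.25, edgeR adjusted p = 1.22e-09). S100A7A was at 1.12, 0.495 and 0.538 CPM in PBS and at 32.7, 55.4 and 26.96 CPM with OSM (5.75 ± 0.41, edgeR adjusted p = 9.03e-11). S100A7A made up 12.3 to 15.3% of the summed counts of S100A7 and S100A7A with OSM and 0.282 to 2.88% in groups without OSM. These are shares of counts and not of levels per length, as the canonical transcript has 4280 bases for S100A7A and 429 for S100A7.

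S100A8, S100A9 and S100A12 are also defining products of neutrophils and monocytes. The list of 9 neutrophil and monocyte markers summed to 55.3 to 62.1 CPM in PBS and 96.9 to 119.9 CPM with OSM. Most of that sum was CD14 (31.2 ± 3.07 CPM in PBS, 63.6 ± 13.5 with OSM; SD, n = 3) and CD68 (27.2 ± 1.03 and 40.6 ± 1.95). PTPRC, FCGR3B, ELANE and LYZ were at or near 0 in all 27 libraries, with highest values of 0.120, 0.0377, 0.0719 and 0.151 CPM. CSF3R and MPO did not pass 0.819 and 1.52 CPM. ITGAM was at 1.09 ± 0.35 CPM in PBS and 0.182 ± 0.065 with OSM. CSF3R was at 0.0876 ± 0.033 CPM in PBS and 0.645 ± 0.20 with OSM, and MPO at 0.0163 ± 0.028 and 0.169 ± 0.084. Of the 5 tested markers, 4 (CD14, CD68, CSF3R and MPO) rose with OSM and ITGAM fell. Of all rows, 32.4% were called higher and 28.5% lower with OSM. The part of these markers in the S100 results was not tested. The fibroblast list summed to 128.7 to 133.2 CPM in PBS and 87.9 to 110.2 with OSM, with COL1A1 at up to 117.8 CPM, DCN at up to 103.2 and COL3A1 at up to 0.0580 in any library. The endothelial list summed to 31.2 to 35.3 CPM in PBS and 2.94 to 3.65 with OSM, with KDR at up to 31.2 CPM and CDH5 at up to 0.144.

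S100P fell most when all ligands were combined. It was at 245.3, 349.8 and 335.4 CPM in PBS, at 80.0, 126.5 and 108.3 CPM with EGF, at 149.8, 217.9 and 147.2 CPM with OSM, and at 187.7, 241.6 and 252.7 CPM with TGFB. EGF and OSM left all libraries below PBS, and the TGFB libraries overlapped PBS. With EGF+OSM S100P was at 59.7, 90.3 and 54.8 CPM, with EGF+TGFB at 44.5, 62.0 and 60.02 CPM, with OSM+TGFB at 71.6, 92.6 and 80.3 CPM and with EGF+OSM+TGFB at 36.5, 48.2 and 33.8 CPM. All 12 libraries of the combinations were below all PBS libraries. The log2 fold changes were -1.56 ± 0.22 with EGF (SE; edgeR adjusted p = 2.56e-06), -0.85 ± 0.22 with OSM (adjusted p = 0.00199) and -2.98 ± 0.24 with EGF+OSM+TGFB (7.87-fold lower, adjusted p = 4.77e-10). With TGFB alone it was -0.45 ± 0.22 and was not called (edgeR adjusted p = 0.122). A fit with a replicate block gave -0.44 for TGFB alone and did call it (edgeR adjusted p = 0.01). Without the block, no departure from the sum was called for S100P. That for EGF+OSM+TGFB was -0.11 with a wide 95% interval of -1.03 to 0.80.

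S100A14 did not move detectably with EGF but fell with OSM and TGFB. It was at 875.8, 969.2 and 918.6 CPM in PBS and at 899.4, 966.3 and 907.0 CPM with EGF, and the log2 difference was 0.0047 ± 0.056 (edgeR adjusted p = 0.946, 95% interval -0.11 to 0.12). It was at 548.9, 602.1 and 560.8 CPM with OSM (-0.69 ± 0.06, edgeR adjusted p = 1.43e-10) and at 634.6, 641.4 and 674.2 CPM with TGFB (-0.50 ± 0.06, adjusted p = 1.3e-07). Both groups lay wholly below PBS. OSM+TGFB gave 406.5, 416.3 and 459.6 CPM (-1.11 ± 0.06) and EGF+OSM+TGFB 430.9, 421.0 and 383.4 CPM (-1.16 ± 0.06), and these 2 groups overlapped. The 4 departures from the sum lay between -0.09 and 0.09, and none was called.

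S100A4 was the lowest of the 10 genes per length in PBS, and OSM lowered it further. It was at 23.1, 25.1 and 23.9 CPM in PBS, at 8.76, 9.41 and 11.1 CPM with OSM, at 19.1, 19.7 and 19.8 CPM with EGF, and at 20.5, 19.8 and 23.9 CPM with TGFB. The OSM libraries were far below PBS and the EGF libraries a little below it. The TGFB libraries overlapped PBS. S100A4 fell with OSM (log2 fold change -1.30 ± 0.10, edgeR adjusted p = 7.7e-11) and with EGF (-0.30 ± 0.10, adjusted p = 0.0083), and the TGFB difference of -0.17 was not called (adjusted p = 0.189). The fall was smaller with EGF+OSM+TGFB, at 13.8, 13.1 and 14.2 CPM (-0.81 ± 0.10), than the single responses add up to: the departure from the sum was 0.96 ± 0.20 (edgeR adjusted p = 0.000288). For EGF+OSM the departure was 0.51 ± 0.14 (edgeR adjusted p = 0.0067), with libraries at 10.7, 10.8 and 12.3 CPM.

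S100A2 had the largest rise with EGF and the largest departures from the sum. It was at 940.5, 889.7 and 902.7 CPM in PBS, at 5266, 5294 and 5104 CPM with EGF, at 3069, 2717 and 3658 CPM with OSM, and at 1501, 1464 and 1541 CPM with TGFB. Each ligand raised all 3 libraries above PBS, with EGF highest. The log2 fold changes were 2.52 ± 0.08 with EGF (SE, 5.73-fold; edgeR adjusted p = 2.14e-17), 1.79 ± 0.08 with OSM (adjusted p = 2.55e-15) and 0.72 ± 0.08 with TGFB (adjusted p = 7.49e-08). EGF+OSM gave 4368, 4158 and 4035 CPM, between OSM and EGF. S100A2 fell by 0.32 ± 0.08 when OSM was added to EGF (edgeR adjusted p = 0.00236), whereas OSM alone had raised it. The departure from the sum was -2.11 ± 0.11 for EGF+OSM (edgeR adjusted p = 8.86e-13) and -2.57 ± 0.16 for EGF+OSM+TGFB (adjusted p = 1.23e-11). It was -0.60 ± 0.11 for EGF+TGFB and -0.40 ± 0.11 for OSM+TGFB, both called. The highest group was EGF+TGFB, at 5635, 5826 and 5540 CPM, and EGF+OSM+TGFB was at 5058, 5052 and 4935 CPM, below EGF.

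S100A10, which binds annexin A2, rose by about 1 log2 unit with each ligand and was highest with all of them. It was at 348.4, 354.5 and 332.6 CPM in PBS, at 764.9, 761.0 and 732.0 CPM with EGF, at 795.4, 739.9 and 782.7 CPM with OSM, and at 775.8, 696.5 and 699.4 CPM with TGFB. The log2 fold changes were 1.12, 1.16 and 1.07, each ± 0.07 (edgeR adjusted p = 7.23e-13, 6.77e-13 and 1.5e-11), and the 3 groups overlapped one another. The pairs fell into different levels: EGF+OSM at 916.2, 868.6 and 751.0 CPM overlapped the OSM and EGF groups, while EGF+TGFB at 1264, 1249 and 1088 CPM and OSM+TGFB at 1356, 1259 and 1345 CPM lay above all single ligands. EGF+OSM+TGFB was highest, at 1686, 1616 and 1463 CPM (2.20 ± 0.07, 4.60-fold). The departure from the sum was -0.995 ± 0.10 with EGF+OSM and -1.15 ± 0.14 with EGF+OSM+TGFB. With TGFB in the pair it was smaller, at -0.39 ± 0.10 (EGF+TGFB) and -0.30 ± 0.10 (OSM+TGFB). All 4 were called, although that for OSM+TGFB was lost in 5 settings, among them the fits without TGFB replicate 1 (-0.24, edgeR adjusted p = 0.105), PBS replicate 3, OSM replicate 3 and OSM+TGFB replicate 2. When OSM was added to EGF, S100A10 differed by 0.17 ± 0.07 and was not called (edgeR adjusted p = 0.0651).

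S100A11, which binds annexin A1, had the group pattern most like that of S100A10 among the 10 genes (r = 0.936 over 9 groups). Its range over the 3 libraries was 660.4 to 707.1 CPM in PBS, 998.5 to 1086 with EGF, 1253 to 1289 with OSM, 850.3 to 896.9 with TGFB and 1539 to 1717 with EGF+OSM+TGFB. No treated group overlapped PBS. The log2 fold changes were 0.61, 0.91, 0.36 and 1.28, each ± 0.06 and each called. The departure from the sum was -0.76 ± 0.08 for EGF+OSM and -0.60 ± 0.11 for EGF+OSM+TGFB (edgeR adjusted p = 4.18e-08 and 9.39e-05). On top of EGF, OSM made a difference of 0.15 ± 0.06 (adjusted p = 0.037), a call lost in 19 of the 34 other settings.

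S100A6 varied least, with a span of 0.82 between the lowest and highest group on the log2 scale. It was at 691.7 to 784.3 CPM in PBS, 930.6 to 974.5 with EGF, 841.7 to 880.9 with OSM and 740.5 to 782.3 with TGFB. The EGF and OSM libraries lay above PBS and the TGFB libraries overlapped it. S100A6 rose with EGF (0.36 ± 0.05, edgeR adjusted p = 2.46e-06) and with OSM (0.22 ± 0.05, adjusted p = 0.00114). It was called higher in EGF+OSM (0.17), OSM+TGFB (0.13) and EGF+OSM+TGFB (0.19) too, and these 3 calls were lost under upper-quartile scaling, at 0.07, 0.05 and 0.09. The departure for EGF+OSM was -0.42 ± 0.08 (edgeR adjusted p = 0.00015).

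The number of the 10 genes called has to be read against the share of all 16611 rows called in the same comparison, which was high. Against PBS, 9 were called with EGF, 4 higher and 5 lower, where 70.8% of all rows were called (33.8% higher, 37.0% lower). With OSM 10 were called, 7 higher and 3 lower, against 61.0% of rows (32.4% higher, 28.5% lower). With TGFB 7 were called, 3 higher and 4 lower, against 33.5% (18.9% higher, 14.7% lower). With EGF+OSM 9 were called (75.0% of rows), with EGF+TGFB 10 (71.3%), with OSM+TGFB 10 (63.5%) and with EGF+OSM+TGFB 10 (72.1%). The median log2 fold change of the 10 genes was -0.15 with EGF, 1.04 with OSM and -0.31 with TGFB, against -0.068, 0.0023 and -0.0089 over all rows. The departure from the sum was called in 5 of the 10 with EGF+OSM (36.5% of rows) and in 5 with EGF+OSM+TGFB (45.9%). It was called in 2 with EGF+TGFB (27.7%) and in 2 with OSM+TGFB (21.5%). With OSM added to EGF, 9 were called (33.0% of rows), and with OSM added to EGF+TGFB, 8 (24.8%). In the reverse order, 6 were called when EGF was added to OSM (59.4% of rows) and 7 when it was added to OSM+TGFB (50.1%). With OSM added to TGFB 9 were called (54.2% of rows), with EGF added to TGFB 8 (66.8%), and with TGFB added to EGF, OSM and EGF+OSM 7, 8 and 9 (52.2%, 48.8% and 58.8%). The 3-way interaction, the part of the EGF+OSM+TGFB response that single ligands and pairs do not account for, was called for S100A10 alone (0.53 ± 0.14, edgeR adjusted p = 0.0308; 3.37% of rows). That call was lost in 9 of the 34 other settings: with no filter on low counts, and without PBS replicate 3, EGF replicate 1 or 2, OSM replicate 1, TGFB replicate 1, EGF+OSM replicate 3, OSM+TGFB replicate 2 or EGF+OSM+TGFB replicate 1 (values of 0.45 to 0.54). S100A2 (0.54 ± 0.15) had an adjusted p = 0.052.

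**Figure D4:**
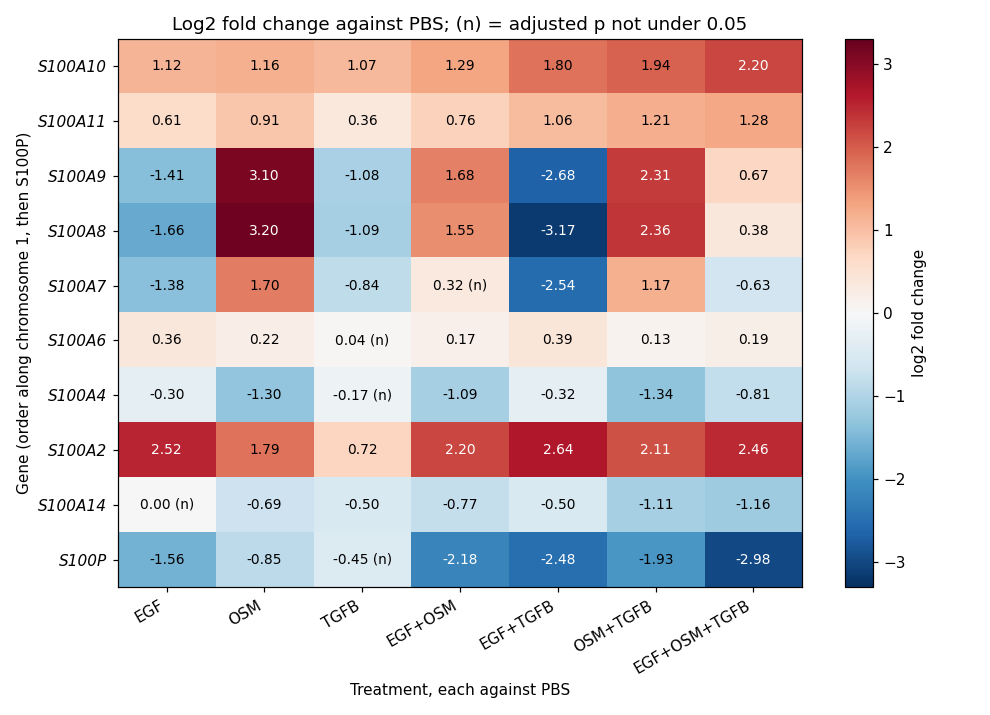
Log2 fold change against PBS of each S100 gene (rows, in order along chromosome 1, then S100P) in the 7 treated groups (columns), with the value printed in each cell and (n) where the adjusted p was not under 0.05. S100A10 and S100A11 are higher in every column, S100A8 and S100A9 change sign with the presence of OSM, and the values of S100P are below 0 in every column, with TGFB alone not called.

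A further 24 h without added ligand moved the genes in both directions. Between T0 and PBS, S100A8 rose from 96.5, 95.2 and 86.5 CPM to the PBS values above (log2 fold change 1.46 ± 0.17), S100A9 from 201.9, 194.0 and 167.2 CPM (1.54 ± 0.16) and S100A7 from 29.5, 29.2 and 21.9 CPM (1.46 ± 0.21). S100P rose from 158.7, 177.2 and 139.9 CPM (0.97 ± 0.22). No T0 library of these 4 genes overlapped PBS. S100A2 fell from 2807, 2546 and 2985 CPM (-1.61 ± 0.08), S100A6 from 1225, 1318 and 1339 CPM (-0.82 ± 0.06), S100A10 from 585.6, 537.0 and 549.1 CPM (-0.69 ± 0.07) and S100A4 from 39.4, 38.6 and 39.0 CPM (-0.70 ± 0.10). The edgeR adjusted p-values of these 8 changes ran from 2.1e-12 (S100A2) to 0.00172 (S100P), and 32.9% of all rows were called. S100A11 (-0.04) and S100A14 (-0.10) were not called. For S100A7, S100A8, S100A9 and S100P, EGF at 24 h gave levels nearer to T0 than PBS did. S100A8 averaged 92.7 ± 5.42 CPM at T0 and 81.1 ± 5.97 CPM with EGF (SD, n = 3), and the ranges of the 2 groups overlapped. The same held for S100A6 and S100A10, so it was not particular to genes that rose from T0 to PBS. S100A4 and S100A11 were further from T0 with EGF than in PBS.

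Levels of different genes were compared per length, as CPM per kb of the canonical GENCODE transcript. In PBS, S100A6 was highest of the 10, at 1692 ± 108 CPM per kb (SD, n = 3), followed by S100A11 (1207 ± 43.7), S100A9 (949.5 ± 67.6) and S100A2 (932.4 ± 27.02). With OSM, S100A9 (8118 ± 854) and S100A8 (5771 ± 703) were highest. With EGF and with EGF+TGFB, S100A2 was highest, at 5345 ± 105 and 5801 ± 149 CPM per kb. S100A4 was lowest of the 10 in 7 groups, ranging from 18.6 ± 3.91 with OSM+TGFB to 46.9 ± 1.96 in PBS, and S100A7 was lowest in T0 (62.6 ± 10.0) and EGF+TGFB (29.6 ± 1.60).

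Of 11 other S100 genes listed, 6 were tested, and S100A5, S100A7L2, S100B, S100G and S100Z stayed at or below 0.210 CPM. Against PBS, 3 of the 6 rose and 2 fell with EGF, 4 rose and 1 fell with OSM, and 2 rose and 0 fell with TGFB. Over all rows 70.8%, 61.0% and 33.5% were called in these comparisons, and the counts of 5, 5 and 2 of 6 are read against those shares. S100A3, the neighbour of S100A4, was at 2.20, 1.74 and 2.30 CPM in PBS and at 19.3, 11.4 and 11.3 CPM with EGF (2.76 ± 0.18, edgeR adjusted p = 2.22e-12). The EGF response of S100A3 was upward where that of S100A4 was downward. S100A3 also rose with OSM, by 1.99 ± 0.18. S100A16, the neighbour of S100A14, was at 873.3, 959.1 and 952.5 CPM in PBS and at 1390, 1497 and 1434 CPM with EGF (0.63 ± 0.06, edgeR adjusted p = 4.83e-10).

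The list of neighbours in 1q21 held cornified-envelope genes (IVL, LORICRIN, the SPRR genes and others) and the peptidoglycan recognition proteins PGLYRP3 and PGLYRP4. Of 12 symbols listed, LOR and LORICRIN being names of the same gene, 9 were tested. All 9 fell with OSM, where 28.5% of all rows were called lower (median log2 fold change -3.78 against 0.0023 over all rows). All 9 also fell with EGF, where 37.0% of all rows were called lower (-1.88 against -0.068). The largest falls with OSM were in SPRR3 (-5.92 ± 0.44), SPRR1A (-5.84 ± 0.34) and SPRR1B (-4.99 ± 0.22), which encode small proline-rich proteins. With TGFB 1 rose, IVL (involucrin, 1.33 ± 0.14), and 0 fell, against 33.5% of rows called. Between T0 and PBS 8 of the 9 rose, against 32.9% of rows called. The list's summed level was 1073 to 1555 CPM in PBS, 375.1 to 522.6 CPM with EGF and 37.8 to 53.97 CPM with OSM.

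The S100-fused proteins carry an S100 domain at the start of a long repeat protein of the cornified layer. Of 7 listed, 6 were tested. With EGF 0 rose and 3 fell (RPTN, FLG, log2 fold change -3.33 ± 0.16, and HRNR, -3.15 ± 0.24), with TGFB 0 rose and 2 fell, and between T0 and PBS 3 rose and 0 fell. RPTN was at 0.425 to 1.05 CPM in PBS and at most 0.122 CPM with EGF, which is a few counts. With OSM 4 fell and 2 rose. Of all rows 70.8% were called with EGF, 61.0% with OSM, 33.5% with TGFB and 32.9% between T0 and PBS. TCHHL1 went from 0.0215 to 0.1249 CPM in PBS to 1.81 to 5.14 CPM with OSM, and CRNN was at 2.20 to 7.90 CPM in PBS and at 0 in all 3 OSM libraries.

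Of 17 binding partners and receptors of S100 proteins listed, 16 were tested. With EGF 7 rose and 6 fell, with OSM 5 rose and 5 fell, with TGFB 8 rose and 4 fell, and with EGF+OSM+TGFB 9 rose and 5 fell. Of all rows 70.8%, 61.0%, 33.5% and 72.1% were called, so the EGF and OSM counts are near the background. ANXA2, the partner of S100A10, rose with EGF (0.59 ± 0.06), with TGFB (0.40 ± 0.06) and with EGF+OSM+TGFB (1.12 ± 0.06, edgeR adjusted p = 7.21e-15). With OSM, where S100A10 rose by 1.16, the ANXA2 difference was 0.09 ± 0.06 and was not called (edgeR adjusted p = 0.153). ANXA1, the partner of S100A11, fell with each single ligand (-0.46 ± 0.08 with EGF, -0.49 ± 0.08 with OSM and -0.32 ± 0.08 with TGFB), while S100A11 rose with each. With EGF+OSM+TGFB, where S100A11 was highest, ANXA1 rose too (0.32 ± 0.08, edgeR adjusted p = 0.00138). MYH9, the non-muscle myosin heavy chain that S100A4 binds, rose by 2.32 ± 0.07 with EGF+OSM+TGFB. TLR4, a receptor for S100A8 and S100A9, did not pass 0.171 CPM in any library, and AGER, the receptor RAGE, did not pass 0.418 CPM.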

How the data were processed

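RNA-seq values of 27 MCF10A libraries were used, grouped by their labels. The deposited table holds estimated counts per Ensembl gene as whole numbers. The submitters' processing notes name kallisto 0.46.2, Trim Galore 0.4.3, cutadapt 1.10, FastQC 0.11.5 and R 3.5.0, with the builds GRCh38.p5 and hg38, and give no roles. The annotation version and any rounding are not given in the sources used here. kallisto estimates counts from shared reads, so near-identical genes such as S100A7 and S100A7A may exchange counts. From the estimated counts, edgeR 4.0.16 in R 4.3.3 was run. The scaling was TMM (trimmed means of M-values). Of 40487 rows, filterByExpr, given the groups, kept 16611. The model held a mean for each group and all 27 libraries entered it (robust glmQLFit, leaving 18 residual degrees of freedom). Contrasts were tested with glmQLFTest, p-values were adjusted over all tested rows by the Benjamini-Hochberg method, and an adjusted p under 0.05 was a call. Fold changes used a prior count of 0.125, and standard errors came from the fold change and its F statistic. CPM used the scaled library sizes. The method was tested on simulated data.

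Depth was 30.1 to 52.9 M counts a library. The biological coefficient of variation was 10.1%, so the spread between libraries and not counting error limits most values. Libraries of 1 group, compared in 27 pairs, differed beyond counting error (chi-square over its degrees of freedom 7.57 to 31.2), so none was treated as a repeat of another. No molecular identifiers are recorded. Alternatives were other scalings (RLE, upper quartile), no filter on low counts, a replicate block, rows summed by symbol, a prior count of 2, leaving out each library, and DESeq2 1.42.0. The named genes were all 10 S100 genes, up to 3 genes a list and comparison by size of change, and the 3 genes of most similar pattern for the 3 S100 genes of widest range. S100A16, ANXA1, ANXA2, TLR4 and AGER fall outside this rule and were named as neighbours or partners after their values were seen. The S100 genes, the lists and the tests were chosen with earlier results of these data known. Start sites, spans and transcript lengths came from GENCODE v44, and promoter windows from RefSeq (GRCh38.p14).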

Additional observations from a re-analysis of the deposited data

How the results depend on the processing

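Of 220 log2 fold changes (10 genes in 22 comparisons), 159 were called, and 143 of these calls were kept in all 34 other settings. Over all settings, 127 calls were lost and 24 gained, and no called value changed sign. Of the counts of called S100 genes, those for the OSM+TGFB departure and the 3-way interaction changed most in proportion. Counts for other comparisons changed by a smaller proportion, as calls were lost or gained. The first was 2 and became 1 without a filter on low counts, and 1 to 2 when a library was left out. The second was 1 and became 0 without the filter, 2 with rows summed by symbol, 2 with DESeq2, and 0 to 2 when a library was left out. Small differences were the least stable. S100A6 with OSM+TGFB was lost in 24 settings, S100A8 with EGF+OSM+TGFB in 19, S100A11 for OSM added to EGF in 19 and for EGF added to OSM in 16, and S100A4 for TGFB added to EGF+OSM in 13. The causes were not tested. Depth limits S100A7A, S100A12, RPTN and TCHHL1, which have few counts in PBS.

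Over all tested rows, same-numbered libraries of different groups did not deviate together. In 108 pairs the median correlation of deviations from group means was 0.041 (-0.053 to 0.16), and 10 pairs were over 0.1. The numbers were therefore not taken as pairs. For S100P, however, replicate 2 lay above replicate 1 in every group. With a replicate block the count for the 3-way interaction was 2. The block added calls for S100P with TGFB (-0.44, edgeR adjusted p = 0.01), for S100P on adding OSM to EGF+TGFB (-0.49) and for its OSM+TGFB departure (-0.62), for S100A10 on adding OSM to EGF (0.16) or EGF to OSM (0.13), for S100A4 on adding EGF to OSM (0.21), and for the S100A2 3-way interaction (0.54).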
